A study of Ovis aries with 24 samples.

Results

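Gene expression in the periventricular white matter (PVWM) was compared between ventilated preterm lambs that received surfactant and unventilated preterm lambs. The comparison took the 4 surfactant libraries (animals 007, 032, 049 and 051) and the 4 unventilated libraries (animals 057, 058, 060 and 061), which are 8 of the 24 libraries of the series, and all genes measured in them. Each library came from a different animal. The surfactant lambs were mechanically ventilated and given intratracheal Poractant alpha, a surfactant prepared from pig lung, at 2.5 mL/kg, with no budesonide. The unventilated lambs received neither ventilation nor surfactant, so the effects of the 2 cannot be told apart. Of the surfactant lambs, 007 was a male of 127 days of gestation and the other 3 were females of 126 days. Of the unventilated lambs, 057 and 058 were males of 127 days, 060 was a female of 128 days and 061 was an animal of 128 days with no sex label. Another group of 4 lambs was ventilated and received, with the surfactant, 0.25 mg/kg of the synthetic glucocorticoid budesonide. Of these, 031, 048 and 050 were females of 126 days and 054 was a male of 127 days. This group shared the fit and is quoted for context, as are the livers of the same groups. The labels list no genetic modification, and the title of the series describes the ventilation as injurious.

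The white matter beside the lateral ventricles holds the axons that leave and enter the cortex, with astrocytes, microglia, blood vessels and, before term, large numbers of oligodendrocyte precursors that have not yet made myelin. It is the region most often damaged in preterm infants, and inflammation, poor oxygen supply and unstable blood flow are the exposures usually linked to that damage. Glucocorticoids act through the receptor encoded by NR3C1, a hormone-activated transcription factor, and reach most brain cells because they cross the blood-brain barrier.

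Total counts were 14.9 to 16.4 M in the surfactant libraries and 15.7 to 16.1 M in the unventilated ones, with 21672 to 22332 genes detected per library. The labelled tissue was clear in the markers: GFAP, the astrocyte filament protein, was at 926 to 2890 counts per M counts (CPM) in these 8 libraries and at 0.235 to 2.28 CPM in the 8 livers of the same groups, and the hepatocyte product ALB was at 1.99 to 6.98 CPM in PVWM and at 56200 to 79100 CPM in liver. On the first principal component of the 12 PVWM libraries, which held 24.6% of the variance, surfactant animals scored from -15.7 (animal 007) to 25.2 and unventilated animals from -46.7 to -19.5. Animal 051 stood apart on the second component, at 50.3.

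Of 18616 genes tested, 252 were higher (1.35%) and 130 lower (0.698%) in the white matter of surfactant lambs than in that of unventilated lambs. A gene was called where the p of edgeR's quasi-likelihood test, adjusted by the Benjamini-Hochberg method across the 18616 genes, was under 0.05, and changes are log2 differences, surfactant minus unventilated, ± SE. At least a 2-fold change was seen for 113 of the higher and 46 of the lower genes. The CPM ranges of the groups did not overlap for 246 of the 252 higher genes and for all 130 lower genes. The same was so for 4.7% of all genes tested in the higher direction and 3.7% in the lower direction. At an unadjusted p under 0.05, 8.24% of all genes were higher and 6.49% lower, and DESeq2 called 2.45% of 20214 genes higher and 1.61% lower. These shares are the background for the list counts that follow. The lists were chosen with earlier results of these data known, so their counts are descriptions and no independent support. Because the samples are pieces of whole tissue, fewer cells of a type and less RNA per cell cannot be told apart.

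**Figure D1:**
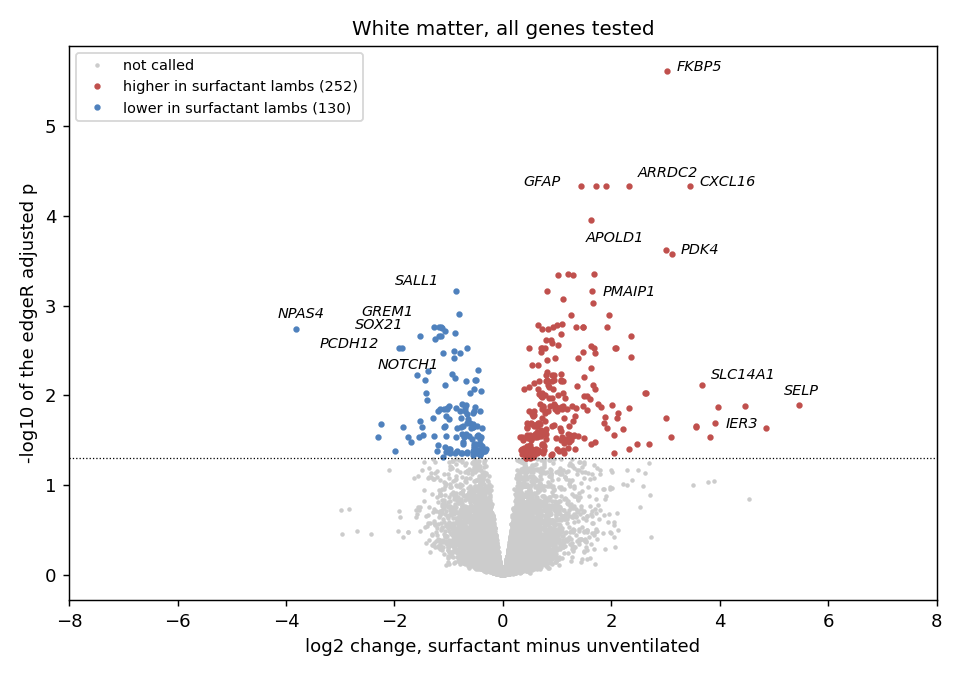
Change of each of the 18616 genes tested in white matter. The horizontal axis is the log2 change, surfactant minus unventilated, the vertical axis is -log10 of the edgeR adjusted p, and the dotted line is the threshold of 0.05. FKBP5 stands highest, SELP farthest to the right among the named genes and NPAS4 farthest to the left.

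Gestational age followed the groups closely, at 126 and 127 days in surfactant lambs and 127 and 128 days in unventilated lambs, so that age and treatment cannot be fully told apart. With age as a covariate, 14 genes were higher and 1 was lower. The 14 included FKBP5, PDK4, ARRDC2, PLA1A, APOLD1, CXCL16 and GFAP, and the lower one was RASGRP3. With sex as a covariate and animal 061 left out, 75 were higher and 22 lower. Within the males of 127 days, where surfactant animal 007 was set against unventilated animals 057 and 058 in a fit with a mean for each group and age, 7 genes were higher and 0 lower by edgeR, and FKBP5, ARRDC2, PLA1A, CXCL16 and GFAP were among the 7. That fit has 1 surfactant animal, takes its spread from animals of other ages and groups and assumes that 007 varies like them, so its calls are not a replicated result. At an unadjusted p under 0.05 that comparison had 518 higher and 474 lower genes. All 382 called genes kept their direction in each of these fits. This is no independent support, since they were called on the same libraries and most had groups that did not overlap. Leaving out single animals gave 117 to 299 higher genes and 56 to 202 lower genes. The higher count fell to 165 without 049, 166 without 058, 127 without 060 and 117 without 061. The lower count was 202 without 007, 72 without 051, 70 without 060 and 56 without 061.

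A large share of the genes known to respond to glucocorticoids rose in surfactant lambs, which had received no budesonide. Of the 38 tested members of a list of such genes, 14 were higher (36.8%, against 1.35% of all genes) and 1 was lower, and the median change was 0.68 against 0.02 over all genes. FKBP5, a co-chaperone that dampens the glucocorticoid receptor and is among its most strongly induced targets, stood at 139, 113, 164 and 183 CPM in surfactant animals 007, 032, 049 and 051 and at 17.2, 20.4, 14.1 and 21.8 CPM in unventilated animals 057, 058, 060 and 061. The lowest surfactant animal was several-fold above the highest unventilated one. The log2 change was 3.03 ± 0.17, a fold of 8.16, with an adjusted p of 2.45e-06.

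PDK4, the kinase that turns off pyruvate dehydrogenase and shifts cells to fatty acid use, had 110, 95.7, 167 and 167 CPM in surfactant animals and 24.6, 16.8, 9.84 and 10.8 CPM in unventilated animals, in the same animal order. The lowest surfactant value was well above the highest unventilated one, and the change was 3.12 ± 0.30 (adjusted p 0.000264). ARRDC2, an arrestin-like adaptor, was at 47.3, 35.4, 39.3 and 57.8 CPM in surfactant animals and 11.2, 8.47, 7.46 and 8.73 CPM in unventilated animals, a change of 2.32 ± 0.17 (adjusted p 4.62e-05). KLF9, a transcription factor induced by both glucocorticoid and thyroid hormone, was at 181, 206, 285 and 361 CPM in surfactant animals, with 049 and 051 the highest, and at 70.1, 128, 60.2 and 75.7 CPM in unventilated animals, with 058 the highest. Its groups did not overlap, and the change was 1.63 ± 0.25 (adjusted p 0.00498).

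The clock gene PER1 was at 80.4, 75.7, 94.7 and 73.4 CPM in surfactant animals and 53.8, 53.4, 42.8 and 47.2 CPM in unventilated animals, a narrow spread in both groups, with a change of 0.72 ± 0.10 (adjusted p 0.00295). HIF3A, a brake on the hypoxia response, was at 32, 28, 28.7 and 15.8 CPM in surfactant animals and 11.8, 8.28, 7.83 and 9.54 CPM in unventilated animals, where 051 came nearest to the unventilated range (change 1.48 ± 0.21, adjusted p 0.00331). SLC22A5, the carnitine transporter, ranged over 28.8 to 39.8 CPM in surfactant animals and 16.8 to 19.8 CPM in unventilated animals (change 0.88 ± 0.12, adjusted p 0.00241). NFKBIA, the inhibitor that holds NF-kB in the cytoplasm and a target of both NF-kB and the glucocorticoid receptor, was at 50.8, 29.7, 107 and 80.1 CPM in surfactant animals and 17.3, 16.4, 13.2 and 16.3 CPM in unventilated animals (change 2.08 ± 0.29, adjusted p 0.00298). These 4 genes were separate between the groups, and NFKBIA varied most among the surfactant animals.

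The remaining higher members were CEBPB (change 1.60 ± 0.28, adjusted p 0.0109), IGFBP1 (3.96 ± 0.72, 0.0135), KLF15 (0.74 ± 0.13, 0.0131), ZBTB16 (1.2 ± 0.25, 0.0266), TSC22D3 (0.60 ± 0.12, 0.0267) and TXNIP (1.06 ± 0.22, 0.0252). IGFBP1, a binding protein for insulin-like growth factors, stayed below 1 CPM in every animal of both groups. TXNIP, which inhibits thioredoxin and glucose uptake, overlapped between the groups, since surfactant animal 051 had 55 CPM and unventilated animal 057 had 60.3 CPM. The calls of KLF15, ZBTB16, TSC22D3 and TXNIP were lost when some single animals were left out: KLF15 without 060 or 061 (adjusted p up to 0.0512), ZBTB16 without 032, 049, 057 or 061 (up to 0.0930), TSC22D3 without 049, 051, 057, 058, 060 or 061 (up to 0.10) and TXNIP without 049, 058, 060 or 061 (up to 0.104). Without both 049 and 051, 8 members of the list were higher, 0 were lower, and the median was 0.37. With gestational age as a covariate 3 members were higher by edgeR (FKBP5, PDK4 and ARRDC2) and 0 lower. With sex as a covariate 6 were higher and 0 lower. SGK1, a kinase widely used as a marker of corticosteroid action, had 71.9, 44.9, 73.8 and 69 CPM in surfactant animals and 46.8, 43.3, 36.7 and 48.2 CPM in unventilated animals, which overlapped, and was not called by edgeR (change 0.57 ± 0.16, adjusted p 0.0974). SGK1 was called higher by DESeq2 (adjusted p 0.0283) and without 032 (change 0.70, adjusted p 0.0187).

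The receptor gene itself was lower. NR3C1 was at 39.9, 46.8, 49.9 and 45.4 CPM in surfactant animals and 58.6, 66.5, 60.7 and 59.3 CPM in unventilated animals, with no overlap, and the change was -0.43 ± 0.08 (adjusted p 0.0149).

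Budesonide lambs give a scale for these levels. In the contrast of budesonide with surfactant, 0.591% of genes were higher and 0.387% lower at the same threshold. FKBP5 was at 401 to 478 CPM with budesonide and 113 to 183 CPM with surfactant alone (log2 difference, budesonide minus surfactant, 1.52, adjusted p 0.000983). PDK4 was at 252 to 442 CPM with budesonide and 95.7 to 167 CPM with surfactant (difference 1.39, adjusted p 0.0341), and ARRDC2 at 88.4 to 119 CPM with budesonide and 35.4 to 57.8 CPM with surfactant (difference 1.17, adjusted p 0.00460). For these 3 genes the surfactant animals lay between the other groups and overlapped neither. KLF9 was at 234 to 315 CPM with budesonide and 181 to 361 CPM with surfactant, which overlapped (difference 0.10, adjusted p 0.931). NR3C1 was at 42.6 to 45.8 CPM with budesonide and 39.9 to 49.9 CPM with surfactant (difference -0.06, adjusted p 0.834).

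**Figure D2:**
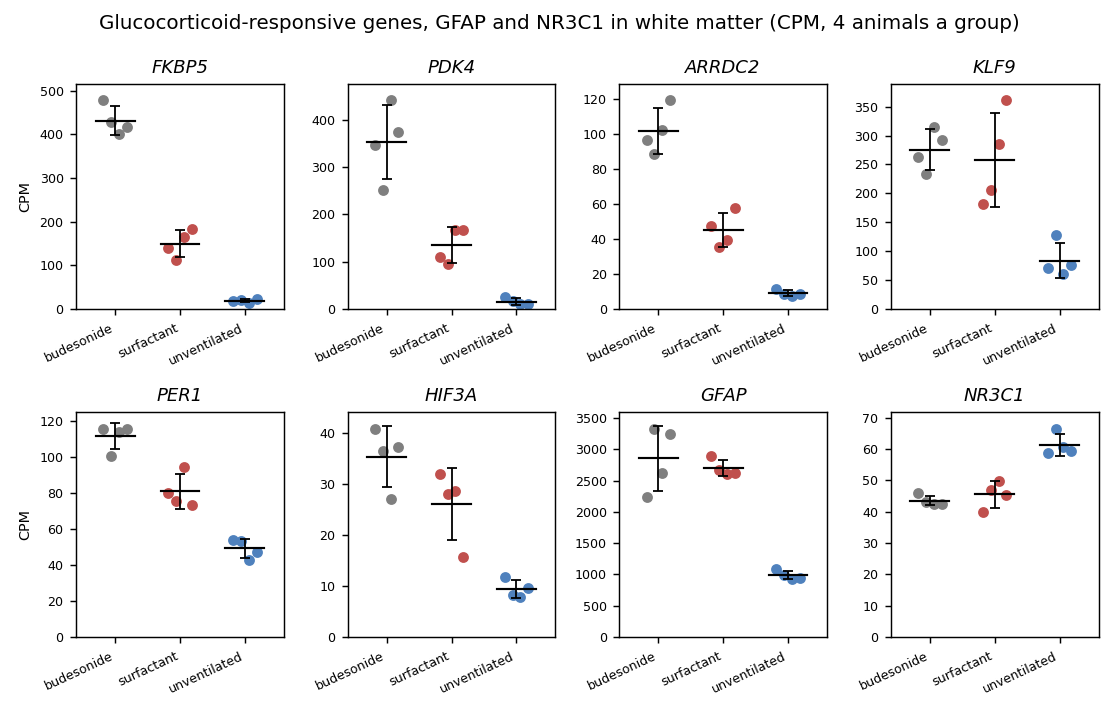
CPM of 6 glucocorticoid-responsive genes, GFAP and NR3C1 in white matter. Each point is 1 animal, the line is the mean of 4 animals and the bar is the SD. FKBP5, PDK4 and ARRDC2 in surfactant animals lie between the budesonide and unventilated animals, GFAP and KLF9 overlap between the ventilated groups, and NR3C1 is lower in both ventilated groups than in unventilated animals.

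Outside the list, 3 genes are given as examples of the 246 higher genes whose groups did not overlap. Their relation to glucocorticoids was not tested. APOLD1, an early-response gene of blood vessel endothelium, was at 135, 57.4, 148 and 126 CPM in surfactant animals, where 032 was the lowest, and 17.7, 17.5, 10.5 and 12.5 CPM in unventilated animals (change 3.0 ± 0.28, adjusted p 0.000238). PLA1A, a secreted phospholipase that acts on phosphatidylserine, was at 33.7, 30.1, 29.7 and 39.3 CPM in surfactant animals and 8.28, 11.2, 8.02 and 8.3 CPM in unventilated animals (change 1.89 ± 0.15, adjusted p 4.67e-05). SLCO4A1, a transporter of organic anions that include thyroid hormones, was at 11.6, 9.86, 10.2 and 9.24 CPM in surfactant animals and 1.96, 4.3, 2.44 and 0.991 CPM in unventilated animals (change 2.08 ± 0.29, adjusted p 0.00295). In all 3 the groups were well apart. PLA1A and SLCO4A1 were chosen after their values were seen.

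GFAP rose in all surfactant animals by nearly the same amount. It was at 2890, 2670, 2610 and 2620 CPM in surfactant animals and 1080, 994, 926 and 951 CPM in unventilated animals, a fold of 2.73 (change 1.45 ± 0.11, adjusted p 4.67e-05). The within-group spread was small in both groups. The change was 1.52 with age as a covariate (adjusted p 0.00567) and 1.48 within the males of 127 days, where 007 was the only surfactant animal. With budesonide GFAP was at 2230 to 3330 CPM.

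Other astrocyte genes gave few calls. Of 29 tested astrocyte markers, 1 was higher and 2 were lower, with a median change of 0.03 against 0.02 over all genes. AQP4, the water channel of astrocyte end-feet, was at 1530, 1440, 1480 and 1240 CPM in surfactant animals and 1340, 1770, 1790 and 1910 CPM in unventilated animals, which overlapped (change -0.26 ± 0.12, adjusted p 0.330). The 2 lower markers were FABP7, a fatty acid binding protein of radial glia and young astrocytes (66 to 96.9 CPM in surfactant animals, 120 to 132 CPM in unventilated animals, change -0.61 ± 0.12, adjusted p 0.0202), and FGFR3, a fibroblast growth factor receptor (37.2 to 49.9 CPM and 56.6 to 69.1 CPM, change -0.58 ± 0.12, adjusted p 0.0233). FABP7 lost its call without 049, 058 or 060 (adjusted p up to 0.0564), and FGFR3 without 032, 051, 057, 058 or 061 (up to 0.0670).

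On the list of genes of reactive astrocytes, 3 of 25 were higher (GFAP, CD14 and OSMR) and 1 was lower (TNC), with a median of 0.40, and of 0.12 without animals 049 and 051. SLC14A1, a urea transporter found in astrocytes, had one of the largest changes: 73.6, 58.7, 33.4 and 35.1 CPM in surfactant animals and 3.31, 8.09, 0.251 and 4.15 CPM in unventilated animals (change 3.67 ± 0.60, adjusted p 0.00762). Its lowest surfactant value was several-fold above its highest unventilated value, and animal 060 was lowest of all.

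Some genes of inflammation and of activated vessels rose in surfactant lambs, and most of these were highest in animals 049 and 051. Of 37 tested genes of NF-kB signalling and inflammation, 5 were higher (CD14, NFKBIA, SELP, ICAM1 and TLR2) and 0 lower by edgeR, with 17 higher and 1 lower at an unadjusted p under 0.05 and 11 higher and 1 lower by DESeq2. Over all genes the shares were 8.24% higher and 6.49% lower at the unadjusted p and 2.45% and 1.61% by DESeq2. The median change was 0.54. Without animals 049 and 051 the list had 3 higher and 1 lower, and its median was -0.02. With gestational age as a covariate 0 of its genes were called by edgeR, and with sex as a covariate 1 was higher and 0 lower. The 45 members of the list in the counts, tested or not, summed to 981, 1060, 1720 and 1300 CPM in surfactant animals 007, 032, 049 and 051. The sums were 1040 to 1270 CPM in unventilated animals, so that only 049 and 051 exceeded the unventilated range.

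SELP, the P-selectin with which activated endothelium and platelets catch leukocytes, showed the largest change of any named gene. It was at 1.64, 5.21, 64 and 18.3 CPM in surfactant animals and 0.552, 0.321, 0.439 and 0.681 CPM in unventilated animals (change 5.46 ± 0.98, adjusted p 0.0129). All surfactant values were above all unventilated ones, but the surfactant values themselves differed widely, with 049 the highest and 007 the lowest. ICAM1, the endothelial adhesion molecule for leukocyte integrins, was at 8.74, 4.96, 75 and 57.8 CPM in surfactant animals and 3.74, 2.05, 2.63 and 3.9 CPM in unventilated animals (change 3.56 ± 0.71, adjusted p 0.0218), high in 049 and 051 and near the unventilated range in 032. IER3, an early-response survival gene, was at 3.52, 11.5, 79.9 and 24.4 CPM in surfactant animals and 2.21, 1.22, 2.57 and 1.92 CPM in unventilated animals (change 3.90 ± 0.77, adjusted p 0.0201), again with 049 the highest.

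These 3 calls were lost without some single animals. SELP was no longer called without 060 (adjusted p 0.0694). ICAM1 lost its call without 051, 057, 058, 060 or 061 (up to 0.104), and IER3 without 057, 058, 060 or 061 (up to 0.0835). With 049 and 051 both left out the changes were 2.76 for SELP (adjusted p 0.0281), 1.15 for ICAM1 (0.121) and 1.91 for IER3 (0.132).

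CXCL16 and CD14 were called with and without those 2 animals. CXCL16, a chemokine that exists in membrane-bound and soluble forms and also binds oxidized lipid, was at 31.2, 38.3, 78.8 and 43.7 CPM in surfactant animals and 4.11, 3.92, 4.82 and 4.58 CPM in unventilated animals (change 3.46 ± 0.28, adjusted p 4.67e-05). CD14, the co-receptor through which phagocytes sense lipopolysaccharide, was at 19.4, 10.5, 37.6 and 26 CPM in surfactant animals and 4.42, 4.62, 5.33 and 3.84 CPM in unventilated animals (change 2.36 ± 0.31, adjusted p 0.00220). Neither overlapped between the groups, and both were called whichever single animal was left out. Without 049 and 051 together the change was 2.99 for CXCL16 (adjusted p 4.77e-05) and 1.71 for CD14 (adjusted p 0.0126).

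TLR2, a receptor for bacterial lipoproteins, was at 14.9, 11.1, 31.9 and 18.4 CPM in surfactant animals and 7.42, 8.92, 7.46 and 7.31 CPM in unventilated animals (change 1.29 ± 0.27, adjusted p 0.0283), and lost its call without 051, 057, 058, 060 or 061 (up to 0.0990). TGM2, the tissue transglutaminase, was at 29, 38.2, 131 and 43.7 CPM in surfactant animals and 9.82, 8.6, 6.08 and 14.2 CPM in unventilated animals (change 2.64 ± 0.45, adjusted p 0.00932), with 049 far above the others. Without 060 its adjusted p was 0.0561. LIPG, an endothelial lipase, was at 5.88, 9.49, 45.3 and 11.8 CPM in surfactant animals and 3.5, 2.31, 0.94 and 1.61 CPM in unventilated animals (change 3.11 ± 0.66, adjusted p 0.0293, and up to 0.128 without 049, 058, 060 or 061). ADAMTS1, a matrix protease, was at 40.9, 34.8, 90.1 and 16.3 CPM in surfactant animals and 10.7, 14.8, 11 and 11.4 CPM in unventilated animals (change 1.93 ± 0.39, adjusted p 0.0233, and up to 0.103 without 057, 060 or 061). TLR2, TGM2, LIPG and ADAMTS1 were highest in 049, and their groups did not overlap. The cytokine genes IL1B and TNF were not called: IL1B was at 2.37, 1.59, 16.5 and 3.99 CPM in surfactant animals and 3.74, 2.57, 4.14 and 3.41 CPM in unventilated animals (change 0.81 ± 0.59, adjusted p 0.569), and TNF at 6.49, 5.21, 5.32 and 5.3 CPM in surfactant animals and 3.56, 1.93, 5.33 and 2.97 CPM in unventilated animals (change 0.69 ± 0.27, adjusted p 0.249). Both overlapped between the groups.

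CXCL8, the neutrophil attractant interleukin 8, the cytokine IL6 and LCN2 had too few counts in too few libraries to enter the main test. CXCL8 had 2, 0, 129 and 61 counts in surfactant animals 007, 032, 049 and 051 and 0 counts in each of the 4 unventilated animals, where a count of 0 allows up to 3 counts. IL6 had 5, 2, 26 and 8 counts in surfactant animals and 3, 3, 2 and 0 counts in unventilated animals. LCN2, the iron-binding lipocalin of acute inflammation, had 2, 3, 1 and 0 counts in surfactant animals and 5, 3, 0 and 2 counts in unventilated animals. Animals 049 and 051, the highest in SELP and ICAM1, held all but 2 of the CXCL8 counts.

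The livers of animals 049 and 051 stood out in the same way. Liver IL6 was at 0.222, 0.72, 113 and 142 CPM in surfactant animals 007, 032, 049 and 051 and was listed at 0 in the 4 unventilated livers (animals 057, 058, 059 and 060, of which 059 was of 128 days), where a count of 0 allows up to 3 counts. Liver CXCL8 was at 0.445, 1.56, 40.2 and 96.3 CPM in surfactant animals and 0.145, 0.137, 0.118 and 0.0893 CPM in unventilated animals. Liver ICAM1 was at 127, 110, 562 and 663 CPM in surfactant animals and 49.6, 45.9, 40.5 and 46.4 CPM in unventilated animals. In each of these 3 genes animals 049 and 051 were the 2 highest.

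**Figure D3:**
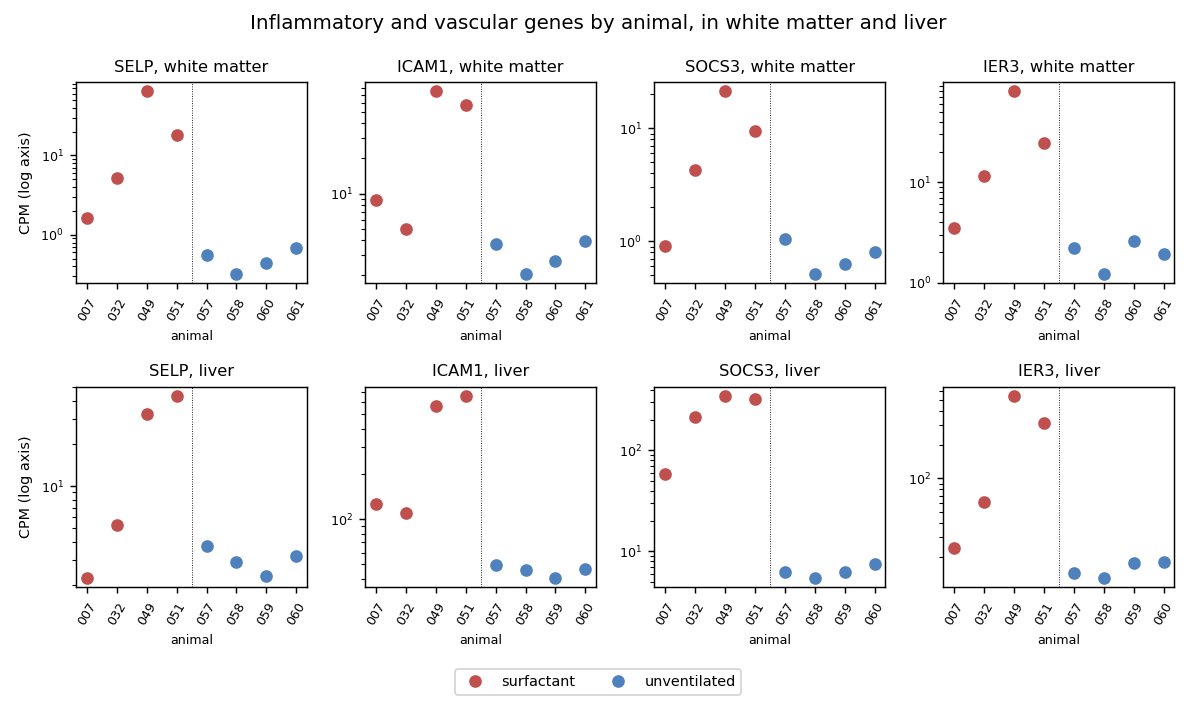
CPM of SELP, ICAM1, SOCS3 and IER3 by animal, in white matter (upper row) and liver (lower row), on log axes. Red points are surfactant animals and blue points unventilated animals. Animals 049 and 051 are the 2 highest in every panel, and in white matter SOCS3 of animal 007 lies within the unventilated range.

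Markers of blood leukocytes stood low in these libraries. Of the neutrophil and monocyte markers, 18 were in the counts and 11 were tested. The 18 summed to 11.3, 12.8, 24.2 and 21.2 CPM in surfactant animals and 7.43 to 11.9 CPM in unventilated animals. The sums were highest in 049 and 051. The 11 tested had a median change of 1.03, and 0.23 without those 2 animals. None was called by edgeR, 4 were higher at an unadjusted p under 0.05 and 1 was higher by DESeq2. The neutrophil protein gene S100A8 was at 0.0607, 0.674, 2.09 and 1.06 CPM in surfactant animals and 0.245, 0, 0 and 0 CPM in unventilated animals. S100A9 was at 0.182, 0.49, 4.51 and 1.5 CPM in surfactant animals and 0.368, 0.321, 0.188 and 0.248 CPM in unventilated animals. Neither was called (adjusted p 0.0917 and 0.174). Lymphocyte markers had 0 of 8 called by edgeR and by DESeq2, with 1 at an unadjusted p under 0.05. The 18 in the counts summed to 13.8 to 17.5 CPM in surfactant animals and 14.2 to 16.4 CPM in unventilated animals. Of the 6 tested platelet genes, a list added after values were seen, SELP alone was higher, and the median was 0.14. The part of blood cells in the inflammatory changes was not tested.

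Among 17 tested genes of the interleukin 6 family and STAT3 signalling, 3 were higher and 0 lower by edgeR (1 lower at an unadjusted p under 0.05 and 1 by DESeq2). None was called by edgeR with gestational age or with sex as a covariate. OSMR, the oncostatin M receptor, was at 30.8, 27.2, 48 and 30.4 CPM in surfactant animals and 16.8, 19.1, 18.7 and 17.6 CPM in unventilated animals (change 0.92 ± 0.15, adjusted p 0.00848). IL6ST, the signal-transducing chain shared by the family, was at 118, 140, 203 and 142 CPM in surfactant animals and 54.2, 94.1, 84.8 and 88.9 CPM in unventilated animals (change 0.90 ± 0.18, adjusted p 0.0218, and up to 0.0617 without 060 or 061). For both genes the groups did not overlap. SOCS3, the feedback inhibitor induced by STAT3, was at 0.91, 4.29, 21.2 and 9.42 CPM in surfactant animals and 1.04, 0.514, 0.627 and 0.805 CPM in unventilated animals (change 3.56 ± 0.72, adjusted p 0.0224), and animal 007 fell within the unventilated range. SOCS3 lost its call without 057, 058, 060 or 061 (up to 0.0995), and within the males of 127 days, with 007 alone as surfactant animal, its change was 0.22.

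OSMR also differed from the budesonide group. It was at 16.2 to 18.7 CPM with budesonide and 27.2 to 48 CPM with surfactant (difference, budesonide minus surfactant, -0.96, adjusted p 0.0123), and SELP was at 0.866 to 1.51 CPM with budesonide and 1.64 to 64 CPM with surfactant (difference -4.32, adjusted p 0.0383). CXCL16 was at 25 to 39.6 CPM with budesonide and 31.2 to 78.8 CPM with surfactant (difference -0.64, adjusted p 0.293), and the groups overlapped.

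Immediate early genes, the first genes transcribed after a stimulus, changed in both directions. Of 38 tested, 5 were higher (JUN, IER3, ZFP36, SIK1 and MAFF) and 3 lower (NPAS4, EGR4 and FOSB), and the median was -0.05. JUN, a subunit of the AP-1 transcription factor, was at 161, 168, 152 and 175 CPM in surfactant animals and 97.3, 115, 70.2 and 80.8 CPM in unventilated animals (change 0.85 ± 0.14, adjusted p 0.00810). ZFP36, which destabilizes cytokine transcripts, was at 10.7, 9.49, 53.3 and 30.5 CPM in surfactant animals and 5.09, 6.36, 6.2 and 4.58 CPM in unventilated animals (change 2.22 ± 0.45, adjusted p 0.0236, and up to 0.0922 without 051, 057, 058, 060 or 061). JUN was even across the surfactant animals, whereas ZFP36 was high in 049 and 051. SIK1, a salt-inducible kinase, was higher by 1.25 ± 0.27 (adjusted p 0.0318, and up to 0.124 without 049, 051, 057, 060 or 061) and MAFF, a small partner of stress transcription factors, by 1.62 ± 0.36 (adjusted p 0.0347, and up to 0.113 without 049, 051, 057, 058, 060 or 061). FOS was at 10.9, 22, 59.5 and 23.3 CPM in surfactant animals and 33.7, 39.5, 28.9 and 21.4 CPM in unventilated animals (change -0.10 ± 0.40, adjusted p 0.942), and EGR1 at 15.3, 14.4, 36.7 and 24.1 CPM in surfactant animals and 32.5, 54.6, 48 and 42.3 CPM in unventilated animals (change -0.97 ± 0.27, adjusted p 0.0974). Both overlapped between the groups. EGR1 was called lower by DESeq2 (adjusted p 0.0148), without 049 (change -1.31, adjusted p 0.0162) and without 049 and 051 (change -1.58, adjusted p 0.0141). Without 049 and 051 the list had 1 higher and 4 lower. With gestational age as a covariate 0 of its genes were called by edgeR, and with sex as a covariate 0 were higher and 2 lower.

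The 3 lower immediate early genes are known to be transcribed in neurons on activity. NPAS4, a transcription factor induced in neurons by calcium entry, was at 0.243, 0.306, 0.0674 and 0.374 CPM in surfactant animals and 3.25, 4.56, 3.76 and 2.91 CPM in unventilated animals, a 14.6-fold lower level (change -3.81 ± 0.49, adjusted p 0.00181). EGR4 was at 7.16, 5.39, 5.46 and 7.86 CPM in surfactant animals and 14, 18.6, 14.7 and 14.1 CPM in unventilated animals (change -1.25 ± 0.17, adjusted p 0.00239). NPTX2, a secreted pentraxin that gathers glutamate receptors at synapses, was at 21.4, 25.4, 12.1 and 17 CPM in surfactant animals and 50.8, 38.2, 83.5 and 55.1 CPM in unventilated animals (change -1.58 ± 0.25, adjusted p 0.00589). No surfactant animal reached the unventilated range in these 3 genes, and each was called whichever single animal was left out. FOSB was at 0.485, 0.551, 0.337 and 0.437 CPM in surfactant animals and 1.47, 1.16, 1.32 and 1.24 CPM in unventilated animals (change -1.50 ± 0.30, adjusted p 0.0224, and up to 0.0684 without 049, 051, 057, 060 or 061). On a list of 20 activity-dependent neuronal genes that was drawn up after these values were seen, 0 were higher and 4 lower by edgeR, with 0 and 10 at an unadjusted p under 0.05 and 0 and 7 by DESeq2. Among neuronal marker genes 0 of 39 were called by edgeR or by DESeq2, 3 were higher and 3 lower at an unadjusted p under 0.05, and they summed to 16700 to 18700 CPM in surfactant animals and 16700 to 18700 CPM in unventilated animals.

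Some genes of neural progenitors and of the Notch and Hedgehog pathways fell in surfactant lambs. Radial glia and other progenitors line the ventricle next to this tissue, and Notch and Hedgehog signals keep them dividing and set their fate. Of 30 tested progenitor markers, 0 were higher and 5 lower by edgeR (16.7%, against 0.698% of all genes), with 3 higher at an unadjusted p under 0.05 and 1 by DESeq2. Of 30 Notch and Hedgehog genes, 0 were higher and 4 lower by edgeR, with 4 higher at an unadjusted p under 0.05 and 1 by DESeq2. The median change was -0.28 in both lists, and NOTCH1, GLI3 and HES5 belong to both lists. Without 049 and 051, 2 progenitor markers and 3 Notch and Hedgehog genes were lower. With gestational age as a covariate 0 genes of either list were called by edgeR. With sex as a covariate each list had 0 higher and 1 lower.

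NOTCH1, the receptor, was at 44, 36.9, 48.2 and 31.6 CPM in surfactant animals and 73.3, 67.3, 67 and 69.9 CPM in unventilated animals (change -0.79 ± 0.11, adjusted p 0.00334). HES5, a repressor that Notch induces in progenitors, was at 11.1, 9.68, 7.41 and 5.12 CPM in surfactant animals and 18.8, 11.4, 18.4 and 20.1 CPM in unventilated animals (change -1.04 ± 0.24, adjusted p 0.0426). HES5 values of surfactant animal 007 and unventilated animal 058 nearly met, and its call was lost without 032, 049, 051, 057, 060 or 061 (up to 0.135). GLI3, a transcription factor of the Hedgehog pathway that mainly represses, was at 16.7, 12, 17.2 and 6.49 CPM in surfactant animals and 38.3, 35.1, 29.3 and 35.4 CPM in unventilated animals (change -1.40 ± 0.25, adjusted p 0.0112). GLI1, the activator whose own transcription reports Hedgehog signalling, was at 1.88, 0.49, 1.41 and 0.874 CPM in surfactant animals and 4.42, 5.65, 3.01 and 3.78 CPM in unventilated animals (change -1.85 ± 0.37, adjusted p 0.0224, and up to 0.0654 without 051, 057, 058 or 061). NOTCH1, GLI3 and GLI1 were separate between the groups.

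TNC, the matrix protein tenascin C of the progenitor niche, was at 92, 81.4, 57.3 and 84.8 CPM in surfactant animals and 178, 158, 182 and 144 CPM in unventilated animals (change -1.07 ± 0.18, adjusted p 0.00759). SOX21, a repressor of the SOX family expressed in progenitors and glia, was at 7.83, 6.74, 6 and 8.61 CPM in surfactant animals and 16.6, 24.3, 20.5 and 23.1 CPM in unventilated animals (change -1.53 ± 0.20, adjusted p 0.00220). The groups were far apart in both. CCND1, the cyclin of early cell cycle entry, was at 73.3, 72.3, 84.2 and 53.5 CPM in surfactant animals and 104, 99.3, 94.3 and 119 CPM in unventilated animals (change -0.56 ± 0.13, adjusted p 0.0465), and it was called in only 1 of the 8 fits without a single animal (without 049), with adjusted p up to 0.145. It was the 1 called member of 45 cell cycle genes, whose median change was 0.01. The proliferation marker MKI67 was at 15.9, 17.9, 20.1 and 17.2 CPM in surfactant animals and 24.3, 22, 18.6 and 21.9 CPM in unventilated animals, which overlapped (change -0.29 ± 0.14, adjusted p 0.372).

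Budesonide animals lay lower still in some of these genes. NOTCH1 was at 21.5 to 24.8 CPM with budesonide and 31.6 to 48.2 CPM with surfactant (difference -0.77, adjusted p 0.00807), TNC at 31.5 to 57.3 CPM with budesonide and 57.3 to 92 CPM with surfactant (difference -0.89, adjusted p 0.0353) and GREM1 at 19.5 to 27.7 CPM with budesonide and 36.6 to 57.1 CPM with surfactant (difference -0.93, adjusted p 0.0101). For GLI3, budesonide animals were at 9.56 to 14.3 CPM and surfactant animals at 6.49 to 17.2 CPM, which overlapped (difference -0.25, adjusted p 0.779).

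**Figure D4:**
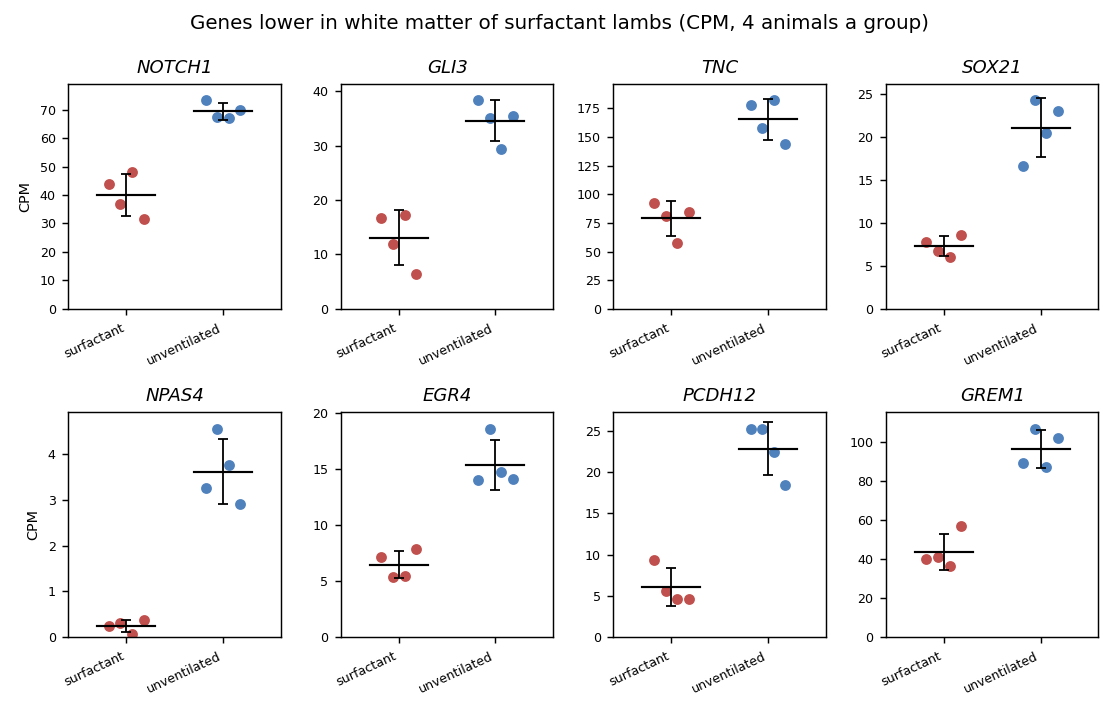
CPM of 8 genes that were lower in the white matter of surfactant lambs. Each point is 1 animal, the line is the mean of 4 animals and the bar is the SD. In every panel the highest surfactant animal lies below the lowest unventilated animal.

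Among genes of the bone morphogenetic protein and Wnt pathways, GREM1, a secreted antagonist of bone morphogenetic proteins, was at 39.9, 41.1, 36.6 and 57.1 CPM in surfactant animals and 89.3, 107, 87.2 and 102 CPM in unventilated animals (change -1.14 ± 0.14, adjusted p 0.00172). The groups did not overlap. It was the 1 called gene of 32 in its list. NKD1, an inhibitor induced by Wnt, was at 4.81 to 7.89 CPM in surfactant animals and 11.9 to 13.4 CPM in unventilated animals (change -1.08 ± 0.22, adjusted p 0.0219), and lost its call without 049, 051, 057, 058, 060 or 061 (up to 0.0603). The Wnt list had 0 higher and 2 lower of 37 by edgeR (NKD1 and the stem cell receptor LGR5, change -0.89 ± 0.21, adjusted p 0.0434, and called only without 057 among the 8 fits) and a median of -0.28, with 2 higher and 15 lower at an unadjusted p under 0.05 and 0 and 4 by DESeq2, against 6.49% and 1.61% of all genes lower.

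Single genes known from blood vessel endothelium were called in both directions, and of the 30 tested members of the endothelial list 0 were higher and 0 lower by edgeR. APOLD1, SELP, ICAM1 and LIPG were higher, and those that follow were lower. PCDH12, a protocadherin of endothelial junctions, was at 9.4, 5.57, 4.65 and 4.68 CPM in surfactant animals and 25.3, 25.2, 22.5 and 18.5 CPM in unventilated animals (change -1.91 ± 0.27, adjusted p 0.00295). SLC38A5, a glutamine transporter of the brain endothelium, was at 4.37, 4.16, 2.43 and 3.18 CPM in surfactant animals and 9.57, 10.6, 8.52 and 8.42 CPM in unventilated animals (change -1.39 ± 0.21, adjusted p 0.00531). In both the groups were clearly separate. Chosen after their values were seen, KIAA1462 (a junction protein, change -1.17 ± 0.16, adjusted p 0.00220), RASGRP3 (an activator of Ras-family GTPases, -1.13 ± 0.14, 0.00177), LMO2 (a transcriptional adaptor of endothelium and blood, -0.80 ± 0.09, 0.00123), PRKCDBP (a caveolar coat protein, -1.08 ± 0.14, 0.00191) and PLAU (urokinase, -1.18 ± 0.15, 0.00172) were also lower with no overlap. RASGRP3 was at 9.46, 10.6, 10.6 and 11.3 CPM in surfactant animals and 22.8, 22.6, 26.4 and 20.2 CPM in unventilated animals. Of 30 endothelial markers 0 were called by edgeR, 4 were higher and 5 lower at an unadjusted p under 0.05, and DESeq2 called 3 higher and 2 lower. They summed to 636, 544, 946 and 533 CPM in surfactant animals, with 049 the highest, and 598 to 699 CPM in unventilated animals. CLDN5, the tight junction protein of brain vessels, was at 17.5, 7.04, 16.3 and 11.8 CPM in surfactant animals and 13.7, 11.4, 8.84 and 10.8 CPM in unventilated animals (change 0.23 ± 0.25, adjusted p 0.734), and overlapped.

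Of 32 growth and neurotrophic factors, 1 was higher and 3 were lower, with a median of 0.01. PDGFB, which recruits pericytes to vessels, ranged over 26.1 to 37.9 CPM in surfactant animals and 49.7 to 68.9 CPM in unventilated animals (change -0.72 ± 0.15, adjusted p 0.0287, and up to 0.0693 without 051, 057, 060 or 061). AREG, a ligand of the epidermal growth factor receptor, was at 0.187 to 0.674 CPM in surfactant animals and 1.19 to 1.72 CPM in unventilated animals (change -1.70 ± 0.37, adjusted p 0.0330, and up to 0.0909 without 032, 051, 057, 058, 060 or 061). FGF9, a fibroblast growth factor, changed by -0.50 ± 0.11 (adjusted p 0.0351, and called only without 049 among the 8 fits). The higher one was NRG2, a neuregulin (change 0.56 ± 0.11, adjusted p 0.0169, and 0.0627 without 061). SEMA3A, an axon guidance signal outside the list and among the largest decreases, was at 4.61, 4.78, 5.39 and 2.31 CPM in surfactant animals and 11.2, 7.19, 18.3 and 13.5 CPM in unventilated animals (change -1.55 ± 0.33, adjusted p 0.0287, and up to 0.0960 without 032, 051, 057, 060 or 061). In all 5 genes the groups did not overlap. Feedback genes of the ERK pathway, a list drawn up after their values were seen, had 0 higher and 5 lower of 13 by edgeR, with 0 and 11 at an unadjusted p under 0.05 and 0 and 9 by DESeq2. Of all genes 0.698% were lower by edgeR, 6.49% at the unadjusted p and 1.61% by DESeq2, and since the list was drawn up on these values its count is a description. The 5 lower were SPRY3, SPRED3, DUSP4, SPRED2 and IL17RD, with changes between -0.54 and -1.06. SPRED2 lost its call without 032, 051, 058, 060 or 061, SPRED3 without 007, 051, 058, 060 or 061, SPRY3 without 032, 049, 058, 060 or 061, DUSP4 without any animal but 060, and IL17RD without any animal but 049 (adjusted p up to 0.112). VEGFA, the main angiogenic factor, was at 34.2, 28.8, 54.1 and 30.3 CPM in surfactant animals and 55, 52.7, 41.5 and 45.6 CPM in unventilated animals and was not called (change -0.40 ± 0.18, adjusted p 0.329). Without 049, its highest surfactant animal, VEGFA was called lower (change -0.65, adjusted p 0.0304).

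Some stress and cell death genes rose. Of 33 p53 targets and apoptosis genes, 4 were higher and 0 lower by edgeR (0 lower at an unadjusted p under 0.05 and 0 by DESeq2), with a median of 0.17. PMAIP1, the BH3-only death protein Noxa, was at 27.8, 20.1, 23.6 and 34.9 CPM in surfactant animals and 6.07, 10.3, 7.77 and 9.35 CPM in unventilated animals (change 1.67 ± 0.19, adjusted p 0.000944). GADD45A, a DNA damage and stress gene, was at 24.9, 18.3, 32.9 and 31 CPM in surfactant animals and 8.71, 9.76, 10.5 and 9.47 CPM in unventilated animals (change 1.48 ± 0.19, adjusted p 0.00175). Both separated the groups fully and were called whichever single animal was left out. BCL2L1, which encodes the anti-apoptotic Bcl-xL, was at 117, 115, 126 and 116 CPM in surfactant animals and 94.7, 89.6, 88.8 and 91.4 CPM in unventilated animals, a small but even rise (change 0.38 ± 0.06, adjusted p 0.00848). GADD45B was higher by 1.81 ± 0.33 (adjusted p 0.0135, and up to 0.0547 without 060 or 061). CDKN1A, the p21 cell cycle inhibitor, was at 18.3, 20.9, 28.6 and 46.7 CPM in surfactant animals and 15, 31.3, 10.6 and 14.9 CPM in unventilated animals. It was not called (change 0.68 ± 0.43, adjusted p 0.510), and the groups overlapped. Without 049 and 051, 2 genes of this list were higher. With gestational age as a covariate 0 were called by edgeR, and with sex as a covariate 2 were higher and 0 lower.

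Hypoxia genes gave calls in both directions. Of 46 tested, 4 were higher and 1 lower, and the median was 0.04. HIF1A, the oxygen-regulated transcription factor whose control is mainly at the protein, was at 131, 124, 174 and 137 CPM in surfactant animals and 80.7, 87.6, 94.6 and 97.5 CPM in unventilated animals (change 0.65 ± 0.11, adjusted p 0.00857). ADM, the vasodilator adrenomedullin, was at 6.67, 9.49, 47.9 and 30 CPM in surfactant animals and 3.68, 3.53, 2.76 and 4.58 CPM in unventilated animals (change 2.69 ± 0.59, adjusted p 0.0345). ADM was high in 049 and 051, and its call was lost without 049, 051, 057, 058, 060 or 061 (up to 0.147). BNIP3, a receptor for mitophagy, changed by 0.43 ± 0.10 with overlapping groups (adjusted p 0.0495, and up to 0.164 without 007, 049, 051, 058, 060 or 061). PFKFB3, which drives glycolysis, changed by -0.46 ± 0.10 (adjusted p 0.0278, and up to 0.0951 without 032, 049, 051, 057, 060 or 061). SLC2A1, the glucose transporter of the blood-brain barrier, was at 233, 258, 575 and 311 CPM in surfactant animals, with 049 far the highest, and 207, 236, 190 and 207 CPM in unventilated animals, and was not called (change 0.71 ± 0.23, adjusted p 0.158).

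Genes of redox and amino acid stress were called in both directions. NFE2L2, the transcription factor NRF2, was at 67, 73, 116 and 96 CPM in surfactant animals and 51.3, 50.1, 45.5 and 48.3 CPM in unventilated animals (change 0.85 ± 0.15, adjusted p 0.0108). SLC7A11, the cystine importer and an NRF2 and ATF4 target, was in contrast lower, at 5.88, 3.55, 5.93 and 3.56 CPM in surfactant animals and 8.96, 12.5, 14.2 and 15.7 CPM in unventilated animals (change -1.44 ± 0.23, adjusted p 0.00677). The groups did not overlap in either. HMOX1, the heme oxygenase induced by NRF2, was at 7.89, 6.18, 14.1 and 4.93 CPM in surfactant animals and 4.05, 4.3, 4.01 and 4.83 CPM in unventilated animals and was not called by edgeR (change 0.94 ± 0.27, adjusted p 0.110) but was called by DESeq2 (adjusted p 0.0328). MTHFD2, a mitochondrial folate enzyme under ATF4, was at 1.33, 2.08, 3.1 and 2.68 CPM in surfactant animals and 0.491, 0.449, 0.689 and 1.05 CPM in unventilated animals (change 1.76 ± 0.31, adjusted p 0.0124). Of 34 NRF2 and antioxidant genes 1 was higher and 1 lower, and of 40 unfolded protein response and ATF4 genes 2 were higher and 1 lower.

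HSPA1A, CIRBP and DDIT4 were not called by edgeR or by DESeq2. The heat shock chaperone HSPA1A was at 63.4, 330, 336 and 178 CPM in surfactant animals and 106, 210, 96.2 and 90.7 CPM in unventilated animals (change 0.85 ± 0.44, adjusted p 0.398), and the cold-inducible CIRBP at 189, 117, 112 and 126 CPM in surfactant animals and 130, 108, 131 and 139 CPM in unventilated animals (change 0.10 ± 0.16, adjusted p 0.822). DDIT4, an inhibitor of growth signalling induced by stress and by glucocorticoids, was at 62.4, 53.5, 137 and 69.8 CPM in surfactant animals and 61.5, 49.3, 36.3 and 43.2 CPM in unventilated animals (change 0.76 ± 0.25, adjusted p 0.173). All 3 overlapped between the groups.

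Metabolic and transport genes added further calls. Of 34 genes of fatty acid synthesis and oxidation, 4 were higher and 0 lower by edgeR (0 lower at an unadjusted p under 0.05 and 0 by DESeq2), with a median of 0.08. Besides PDK4 these were GPAM, which starts glycerolipid synthesis (change 0.66 ± 0.13, adjusted p 0.0202, and up to 0.0758 without 051, 060 or 061), CPT2 (0.55 ± 0.11, 0.0280, and up to 0.0951 without 049, 051, 057, 060 or 061) and ELOVL5 (0.79 ± 0.17, 0.0307, and up to 0.107 without 032, 049, 051, 057, 060 or 061). ABCG1, a cholesterol exporter, was at 62.5, 72.9, 102 and 75.6 CPM in surfactant animals and 38.5, 47.8, 44.8 and 35.5 CPM in unventilated animals, with no overlap (change 0.91 ± 0.14, adjusted p 0.00588). NNMT, which methylates nicotinamide, was at 0.546, 1.04, 1.48 and 1.31 CPM in surfactant animals and 0.307, 0.128, 0.125 and 0.124 CPM in unventilated animals (change 2.62 ± 0.45, adjusted p 0.00932), a low level in both groups but separate.

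Among 13 thyroid hormone genes, KLF9 and DIO2 were higher and 0 were lower by edgeR (1 lower at an unadjusted p under 0.05 and 0 by DESeq2). DIO2 encodes the enzyme with which astrocytes make the active hormone. DIO2 was at 159, 147, 284 and 310 CPM in surfactant animals, highest in 049 and 051, and 54.9, 103, 61.7 and 58.1 CPM in unventilated animals, highest in 058 (change 1.69 ± 0.28, adjusted p 0.00858). With budesonide it was at 407 to 747 CPM, against 147 to 310 CPM with surfactant (difference 1.30, adjusted p 0.0496). The groups did not overlap in either contrast. Among 36 amino acid and ion transporters, 1 was higher and 4 lower. The higher one was SLC7A8 (62.3 to 78.4 CPM in surfactant animals and 35.5 to 50.2 CPM in unventilated animals, change 0.72 ± 0.12, adjusted p 0.00932). Besides SLC38A5 and SLC7A11, KCNJ16, a potassium channel of glia, changed by -1.08 ± 0.22 (adjusted p 0.0224, and up to 0.0632 without 032, 051, 057, 058 or 060). SLC7A10, a neutral amino acid transporter of astrocytes, was lower, at 10.9, 8.51, 8.49 and 10.3 CPM in surfactant animals and 18.7, 17.6, 16.5 and 18.6 CPM in unventilated animals, with no overlap (change -0.90 ± 0.13, adjusted p 0.00382).

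Several of the largest changes belonged to no list. ACKR2, a scavenger receptor for inflammatory chemokines, was at 5.4, 8.21, 10 and 3.43 CPM in surfactant animals and 23.2, 64.7, 15.7 and 25.2 CPM in unventilated animals, where 058 was the highest (change -2.25 ± 0.45, adjusted p 0.0210, and 0.0533 without 051). DMP1, a phosphoprotein best known from bone and dentin, was at 12.1, 8.63, 7.48 and 5.87 CPM in surfactant animals and 38, 26.1, 31.8 and 28 CPM in unventilated animals (change -1.86 ± 0.26, adjusted p 0.00299). TNFSF4, the ligand of the T cell receptor OX40, was at 0.91, 1.22, 1.01 and 1.31 CPM in surfactant animals and 5.15, 2.18, 2.13 and 5.64 CPM in unventilated animals (change -1.75 ± 0.37, adjusted p 0.0293, and up to 0.107 without 007, 032, 049, 051, 057 or 061). In these 3 genes the groups were separate, as they were for the next 3. GYG2, which primes glycogen synthesis, was at 8.61, 7.47, 4.18 and 2.56 CPM in surfactant animals and 18.6, 14, 14.4 and 18.8 CPM in unventilated animals (change -1.52 ± 0.30, adjusted p 0.0192, and up to 0.0637 without 049 or 061). On the higher side, MEDAG was at 3.03, 1.78, 3.3 and 3.25 CPM in surfactant animals and 0.859, 0.385, 0.627 and 0.31 CPM in unventilated animals (change 2.36 ± 0.35, adjusted p 0.00372) and LOXL4, a lysyl oxidase of the extracellular matrix, at 6.19, 3.31, 2.76 and 3 CPM in surfactant animals and 0.736, 0.642, 0.0627 and 0.433 CPM in unventilated animals (change 3.01 ± 0.58, adjusted p 0.0178, and up to 0.0660 without 060 or 061).

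**Figure D5:**
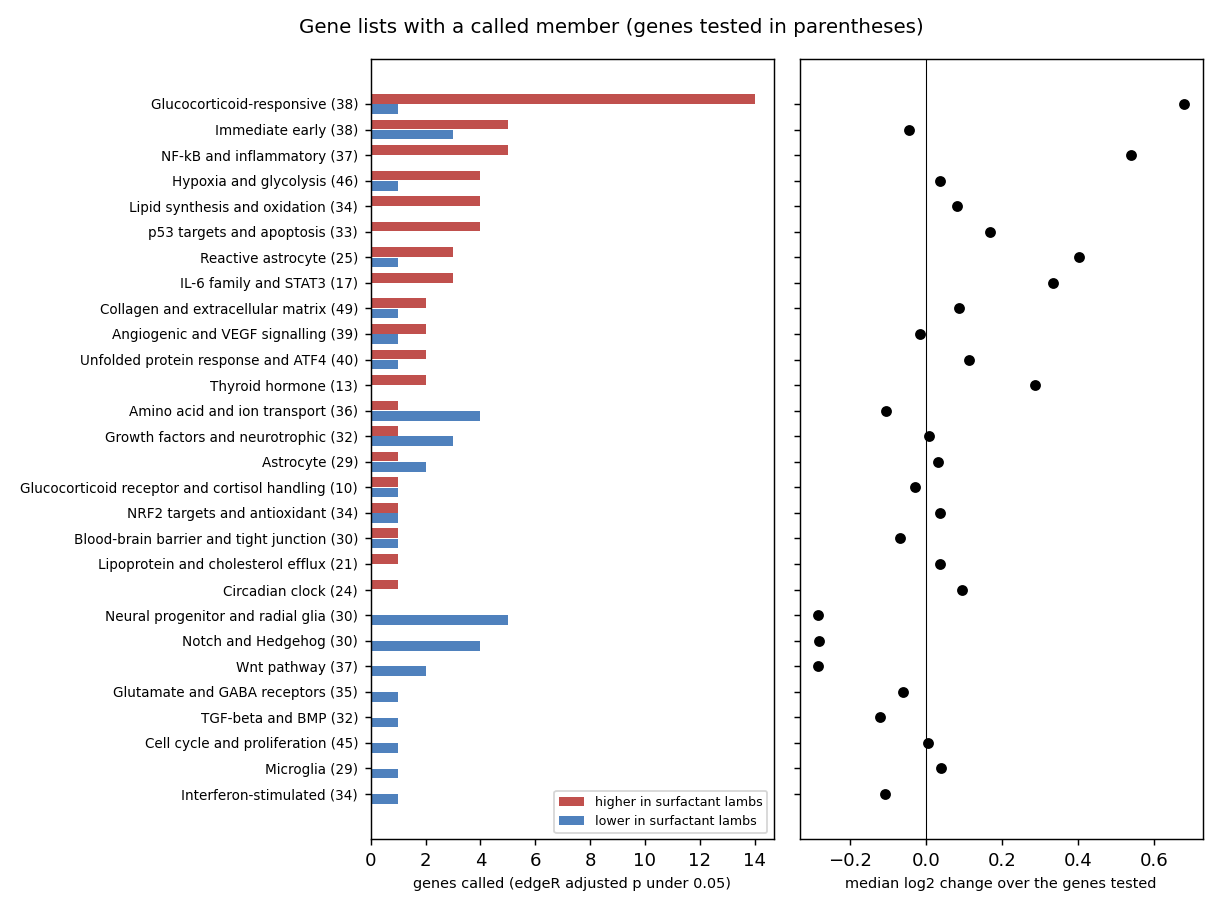
Gene lists with at least 1 called member. The left panel counts called genes (red, higher in surfactant lambs, and blue, lower), and the right panel gives the median log2 change over the genes of the list that were tested, surfactant minus unventilated. Glucocorticoid-responsive genes have the most called members, 14 higher and 1 lower. The progenitor, Notch and Hedgehog and Wnt lists have lower members only at this edgeR threshold. So do the interferon, microglia, cell cycle, TGF-beta and BMP, and glutamate and GABA receptor lists, with 1 lower member each.

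Microglial markers gave 1 call. Of 29 tested, 0 were higher and 1 lower by edgeR, 6 were higher at an unadjusted p under 0.05 and DESeq2 called 0 higher, and the median was 0.04. CSF1R, the receptor on which microglia depend, was at 70.4, 65.3, 80.2 and 60.8 CPM in surfactant animals and 68.8, 65.6, 76.1 and 66.9 CPM in unventilated animals (adjusted p 0.990). AIF1, the calcium-binding protein Iba1, was at 8.86, 7.04, 9.37 and 8.43 CPM in surfactant animals and 7.3, 5.78, 6.27 and 6.87 CPM in unventilated animals (change 0.36 ± 0.13, adjusted p 0.219). Both overlapped. The 1 lower member was SALL1, a transcription factor of microglia that neural progenitors also express, at 36.5, 28.5, 33.1 and 30.6 CPM in surfactant animals and 58.7, 57, 57.6 and 59.9 CPM in unventilated animals, with little spread in either group (change -0.86 ± 0.09, adjusted p 0.000684).

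Myelin genes were high in a single animal. MBP, myelin basic protein, was at 749, 942, 303 and 5390 CPM in surfactant animals and 793, 751, 254 and 736 CPM in unventilated animals. Animal 051 was far above every other animal, animals 049 and 060 were the lowest, and the groups overlapped. MBP was not called (change 1.54 ± 0.71, adjusted p 0.333), and without 051 its change was 0.07. Of the myelin and oligodendrocyte genes, 36 were in the counts and 35 were tested. The 36 summed to 3570, 4080, 1880 and 19400 CPM in surfactant animals and 1570 to 3580 CPM in unventilated animals. The 35 tested had a median change of 0.79, and 0.04 without 051. Of these genes 0 were called by edgeR, 13 were higher and 1 lower at an unadjusted p under 0.05, and DESeq2 called 1 higher and 0 lower.

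Oligodendrocyte precursor genes had no call by edgeR among 24 tested, with 1 higher and 7 lower at an unadjusted p under 0.05 and 1 higher and 3 lower by DESeq2, against 6.49% and 1.61% of all genes lower. PDGFRA, the growth factor receptor that marks these precursors, was at 274, 197, 209 and 190 CPM in surfactant animals and 254, 220, 222 and 258 CPM in unventilated animals (change -0.13 ± 0.12, adjusted p 0.672). OLIG2, the lineage transcription factor, was at 19.7, 10.5, 14.7 and 13.8 CPM in surfactant animals and 24.9, 20.1, 13.4 and 24 CPM in unventilated animals (change -0.49 ± 0.22, adjusted p 0.332). Both overlapped between the groups.

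Some other lists gave few calls by edgeR. JAM3, a junction protein, was the 1 higher gene of 30 at the blood-brain barrier and tight junctions (change 0.59 ± 0.12, adjusted p 0.0290, and up to 0.108 without 049, 058, 060 or 061), and SLC38A5 was the 1 lower gene. Among 49 matrix genes TIMP3, an inhibitor of metalloproteases, was higher (change 0.78 ± 0.16, adjusted p 0.0271, and up to 0.10 without 007, 049, 058, 060 or 061), as was ADAMTS1, and TNC was lower. IFIT3, an interferon-induced gene, was the 1 lower gene of 34 such genes, whose median was -0.11 (change of IFIT3 -0.97 ± 0.22, adjusted p 0.0439, and called only without 049 among the 8 fits). GABRA4, a subunit of the GABA-A receptor, was the 1 lower gene of 35 glutamate and GABA receptor genes (change -0.45 ± 0.10, adjusted p 0.0420, and up to 0.120 without 007, 032, 051, 057, 060 or 061). PER1 was the 1 gene of 24 clock genes called by edgeR. At an unadjusted p under 0.05 the clock list had 8 higher and 2 lower and the barrier list 8 and 6. The interferon list had 3 and 6, the matrix list 9 and 5 and the receptor list 0 and 3. In the same order DESeq2 called 2 and 0, 5 and 3, 1 and 5, 5 and 2, and 0 and 1. Over all genes the shares were 8.24% higher and 6.49% lower at the unadjusted p, and 2.45% and 1.61% by DESeq2. The copper protein CP, of the acute phase list, was at 1.21, 2.08, 1.55 and 2.62 CPM in surfactant animals and 1.53, 1.28, 1.25 and 1.05 CPM in unventilated animals, which overlapped, and was not called (change 0.54 ± 0.28, adjusted p 0.406).

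No member was called by edgeR among genes of the acute phase, complement, red cells, pericytes, fibroblasts, ependymal cilia, the choroid plexus, heat shock, cold, sterol synthesis, oxidative phosphorylation or cytosolic ribosomes. At an unadjusted p under 0.05 these lists held 0 to 5 higher and 0 to 2 lower genes each, and DESeq2 called 0 to 2 in each direction. Of 11 acute phase genes 4 were higher and 1 lower at the unadjusted p, and 2 and 0 by DESeq2. Their median was 0.54, and 0.25 without 049 and 051. At the unadjusted p 4 of 23 complement genes were higher and 1 lower, and 2 of 9 cold-inducible genes higher and 0 lower. Over all genes 8.24% were higher at the unadjusted p and 2.45% by DESeq2. The median change was 0.12 over 54 ribosomal protein genes, 0.05 over 33 genes of oxidative phosphorylation and 0.00 over 26 sterol genes. Fibroblast and meningeal genes summed to 977, 1120, 2340 and 920 CPM in surfactant animals and 1000 to 1460 CPM in unventilated animals, so that 049 alone lay above the unventilated range, and their median was 0.20, or -0.57 without 049.

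Fewer genes were called in white matter than in liver. In the liver of the same treatment groups 21.6% of 16824 genes were higher and 19.5% lower in surfactant than in unventilated lambs. Of the 382 genes called in white matter, 334 were tested in liver, where 139 were called in the same direction and 60 in the opposite direction. In a single fit of all 24 libraries, the change in liver minus the change in PVWM was called for 14.6% of 20010 genes in the higher and 11.2% in the lower direction. For 176 of the 382 genes the tissue difference was called. With each animal as a block the number of genes called in that test was 3755, against 5170 without it.

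FKBP5 changed more in white matter than in liver. Its change in liver was 1.69 (liver 61.9 to 151 CPM in surfactant animals and 13.9 to 43.6 CPM in unventilated animals), and the tissue difference, liver minus PVWM, was -1.28 ± 0.38 (adjusted p 0.0170, up to 0.0604 without 049, 058 or 060, and 0.000873 with the animal as a block, where the difference was -1.66). PLA1A was higher in white matter and not called in liver (242 to 438 CPM in surfactant animals and 323 to 506 CPM in unventilated animals, adjusted p 0.378), with a tissue difference of -2.09 ± 0.29 (adjusted p 2.18e-05). PDK4 changed by 6.17 in liver, a tissue difference of 3.14 ± 0.45 (adjusted p 3.70e-05), SLCO4A1 by 9.84, a difference of 7.83 ± 0.76 (adjusted p 3.67e-07), and OSMR by 3.65, a difference of 2.81 ± 0.41 (adjusted p 4.46e-05). These 3 rose in both tissues, and more in liver. The fit of 24 libraries did not pair the 2 tissues of an animal. With the animal as a block the edgeR adjusted p was 0.0018 for PLA1A, 0.000575 for PDK4, 0.000113 for SLCO4A1 and 0.0012 for OSMR.

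NOTCH1 and TNC went opposite ways. Liver NOTCH1 was at 50, 160, 230 and 224 CPM in surfactant animals and 35.6, 29.7, 34 and 32.7 CPM in unventilated animals (change 2.33, adjusted p 0.00119), and the tissue difference was 3.20 ± 0.45 (adjusted p 3.11e-05). Liver TNC was at 43.6, 43, 160 and 183 CPM in surfactant animals and 38.1, 29, 40.4 and 37.7 CPM in unventilated animals (change 1.56, adjusted p 0.0172), and the tissue difference was 2.72 ± 0.53 (adjusted p 0.000701). In liver both were higher in surfactant animals, with 049 and 051 the highest, and in white matter both were lower. With the animal as a block the edgeR adjusted p of the tissue difference was 0.00228 for NOTCH1 and 0.0126 for TNC.

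The smallest p-values of the tissue difference included genes with overlapping groups in white matter. ERN1, a sensor of unfolded proteins, was at 19.2 to 22.9 CPM in surfactant and 15.9 to 22.6 CPM in unventilated white matter, but at 763 to 1010 CPM in surfactant and 87.8 to 125 CPM in unventilated liver (difference 3.01 ± 0.21, adjusted p 2.98e-09). NSDHL, a sterol synthesis enzyme, was at 96.8 to 110 CPM in surfactant and 99.8 to 103 CPM in unventilated white matter, and at 10.8 to 15.2 CPM in surfactant and 41.5 to 59.8 CPM in unventilated liver (difference -1.84 ± 0.18, adjusted p 3.67e-07). For both genes the white matter ranges overlapped and the liver ranges did not. With the animal as a block the edgeR adjusted p was 1.08e-05 for ERN1 and 0.00029 for NSDHL.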

How the data were processed

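Whole-number gene counts, deposited by the authors as 1 table for PVWM and 1 for liver, were used as supplied. Per the labels, RNA was extracted with Trizol and sequenced after poly-A selection. Per the submitters' processing notes, Bowtie2, featureCounts and edgeR were used; no source used here states their versions, their settings or the genome build. Of 27716 rows, 508 locus identifiers were named through the RefSeq gene table supplied, and dates stood in place of 23 symbols.

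Calculations used R 4.3.3, edgeR 4.0.16 and DESeq2 1.42.0. The 12 PVWM libraries (3 groups) were filtered by filterByExpr, TMM-scaled and fitted with robust quasi-likelihood. The test was also run on counts simulated from the means and dispersions of these libraries. That simulation held no effect of age, sex or single animals, so it does not check for those. Each SE was derived as the size of the log2 change over the root of its F statistic. CPM are scaled, and changes were taken from the quasi-likelihood fit. The principal components and the correlation of deviations used log2 CPM with a prior count of 2. The biological coefficient of variation was 0.197. Replicate libraries differed beyond sampling noise. Liver and PVWM libraries of the same number were taken as the same animal (11 pairs, correlation of deviations 0.079 to 0.198, 6 of them over 0.1). Animal 060 of these is labelled female in PVWM and has no sex label in liver.

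Genes were named by a rule: the 15 largest non-overlapping changes each way, up to 4 called members per list, and a panel. Named after their values were seen were KLF15, IGFBP1, SLCO4A1, PLA1A, TLR2, ZFP36, KCNJ16, MAFF, SIK1, KIAA1462, RASGRP3, LMO2, PLAU, PRKCDBP, BNIP3, S100A8, S100A9 and the ERK feedback genes. The gene lists, 46 and 3 added, come from general knowledge, and lists and genes were chosen with earlier results of these data known. CCL2 and SERPINA3 were not analysed here. Some items are not reported here. Alternatives were other scaling, filters, covariates, DESeq2 and leaving out animals.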

Additional observations from a re-analysis of the deposited data

Results flagged for a closer look

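In 19 of 242 sets of 4 animals examined, 1 animal lay apart from the other 3 by a gap above Dixon's 95% critical share of the range. Chance gives about 1 in 20. Surfactant animal 049 was high for LIPG, an endothelial lipase (45.3 CPM), TGM2 (131 CPM) and IL1B (16.5 CPM). Surfactant animal 051 was high for MBP (5390 CPM), and unventilated animal 060 was low for MBP (254 CPM). Surfactant animal 007 was high for TNF (6.49 CPM) and LOXL4 (6.19 CPM), and surfactant animal 032 was low for SGK1 (44.9 CPM). Unventilated animal 058 was high for PLA1A (11.2 CPM), TLR2 (8.92 CPM), ADAMTS1, a matrix protease (14.8 CPM), EGR4 (18.6 CPM), HSPA1A (210 CPM), DIO2 (103 CPM), SPRED3 (61 CPM) and DUSP4 (30.1 CPM). Unventilated animal 057 was high for BNIP3, a mitophagy receptor (109 CPM), NNMT (0.307 CPM) and PDGFB (68.9 CPM).

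The change with surfactant differed between liver and white matter, by the edgeR test of the difference, for the genes that follow. As liver change minus PVWM change on the log2 scale it was -1.28 for FKBP5, 3.14 for PDK4, 7.83 for SLCO4A1, -2.09 for PLA1A, 2.81 for OSMR, 3.20 for NOTCH1 and 2.72 for TNC, with adjusted p from 3.67e-07 to 0.0170. The smallest p in each direction belonged to KBTBD11 (4.16), AASDH (3.45), WFS1 (4.37) and ERN1 (3.01), and to NUDT7 (-4.63), SMG6 (-2.45), TTBK1 (-4.41) and NSDHL (-1.84), with adjusted p from 1.03e-09 to 3.67e-07. Every surfactant liver was above, or for the last 4 below, every unventilated liver in these 8 genes. These p-values come from the fit that did not pair the tissues of an animal. With the animal as a block the edgeR adjusted p ran from 0.000113 to 0.0126 for the first 7 genes and from 1.08e-05 to 0.00029 for these 8.

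Outside the test, CXCL8 had 192 counts in the 4 surfactant white matter libraries and 0 in the unventilated ones, and IL6 had 41 counts in the surfactant libraries and 8 in the unventilated ones.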

How the results depend on the processing

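All 382 called genes kept their direction under each alternative that gave them a value (377 of them with the 8 libraries alone). They were called on these same libraries, mostly with groups that did not overlap, so the kept direction is no independent support. The 252 higher and 130 lower genes became 496 and 326 by DESeq2, 109 and 65 in a fit of the 8 libraries alone, 14 and 1 with gestational age as a covariate, 75 and 22 with sex as a covariate, 7 and 0 within the males of 127 days (1 surfactant animal), and 29 and 5 in a test against a 1.5-fold change. Without surfactant animals 049 and 051, an alternative chosen after the data were seen, they were 74 and 27. Leaving out each animal in turn gave 117 to 299 higher and 56 to 202 lower genes. Median-ratio scaling (249 and 130) and no filter on low counts (209 and 123) stayed within 1.5 times. Of 121 genes followed through these alternatives, 100 were called, and 50 of these were called whichever single animal was left out. Of the same 100, 8 were called with gestational age as a covariate, 33 with sex as a covariate and 35 without animals 049 and 051. The fit of the 8 libraries alone called 54 of them, the test against a 1.5-fold change 18 and DESeq2 all 100.

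The 24-library test called 5170 genes, 5215 with median-ratio scaling, 4781 with no filter and 3927 to 6230 without single animals. With the animal as a replicate block it called 3755. The animals pair the tissues only, so the white matter groups, which hold different animals, could not be compared by pairs.

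With 4 animals a group, ages of 126 and 127 days against 127 and 128 days, and no ventilated lamb without surfactant, the data do not separate ventilation, surfactant and age, and the cause of the lower counts under the covariates was not tested beyond the fits given. Fits with fewer animals also have fewer degrees of freedom. CXCL8 and IL6 did not pass the filter on low counts and were outside the main test. The fits without that filter took them in, and their outcomes there are not reported here.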
